A study of Mus musculus with 2 samples.

Results

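Microtubules are polymers of dimers of alpha- and beta-tubulin, and mammals carry several genes for each of these subunits. Stathmin, the product of Stmn1, binds free tubulin dimers and promotes the shortening of microtubules, and its level is commonly high in dividing cells. Gamma-tubulin does not build the wall of the microtubule but sits in the ring complex from which microtubules grow, at the centrosome and the spindle. In liver, microtubules serve the secretion of plasma proteins in resting hepatocytes and form the spindle when hepatocytes divide. Described here are Stmn1, the alpha-tubulin genes Tuba1a, Tuba1b, Tuba1c and Tuba4a, the beta-tubulin genes Tubb2a, Tubb2b, Tubb5 and Tubb6, and the gamma-tubulin gene Tubg1. These 10 genes, of 33224 gene symbols in the table, were chosen by name with their KO/WT FPKM ratios in these libraries already known, so the ratios below are descriptions and none was tested. Each of the 10 had 1 row in the table under its own symbol, and each passed the low-value limit of 1 FPKM in both libraries.

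Livers came from male C57BL/6 mice, wild type (WT) or PPARβ-null (KO, lacking the nuclear receptor PPARβ), and, by the study's text, were collected 48 hr after partial hepatectomy (PH). The sample labels give an age of 4 months for both, while other descriptions of the series give a lower age or a range. Hepatic RNA was sequenced as 1 library per genotype, and the number of mice behind a library and the part of Ppard that was deleted are not given in the sources used here. The values are FPKM, which count the fragments of a locus relative to its exon length and to all mapped fragments of the library.

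With 1 library per genotype there was no replicate error, and differences between mice were not measured. The table names a different sequencing lane for each library, so lane, mouse and genotype cannot be told apart. Ppard, the targeted gene, was listed at 2.67 FPKM in WT and 2.42 FPKM in KO, so its mRNA level did not separate the libraries. An FPKM of 1 on a transcript of 1 kb rested on about 54.7 fragments in WT and 56.3 in KO. The 95% intervals given with ratios are exact binomial intervals on the estimated fragments and cover counting error only. Among the 11723 genes with a mean of at least 1 FPKM the median log2 KO/WT was -0.24, which scaling of the libraries can shift, and this median is the level against which the ratios below can be read. All 6 hepatocyte markers checked were abundant in both libraries, from 172 FPKM for Hnf4a in WT to 4039 FPKM for Serpina1a in KO. Of the 6, Ass1 at 2672 and 983 FPKM and Cps1 at 1597 and 743 FPKM, both enzymes of the urea cycle, were past 2-fold lower in KO, and Apoa1, Serpina1a and Hnf4a were higher by less than 2-fold. Cps1 was no longer past 2-fold after the ratios were centred on the median of expressed genes. The 6 summed to 13342 FPKM in WT and 11867 FPKM in KO, or 13985 FPKM in KO after centring.

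Promoters of some of the genes that differ in direction are shown first, because alpha- and beta-tubulin genes of the same class went opposite ways. RefSeq promoter sequences were found for 6 of the 10 genes, and Stmn1, Tubb2b, Tubb6 and Tubg1 were not matched. The sequences were placed on NCBIM37 (mm9), the build of the table, by exact match, and each matched 1 place on its chromosome. They run 5′ to 3′ on the strand of the gene and end before its annotated first exon. Capitals mark CCAAT on either strand and TATAAA, and GGGCGG is not marked.
Tubb5, chr17:35975252-35975496, minus strand: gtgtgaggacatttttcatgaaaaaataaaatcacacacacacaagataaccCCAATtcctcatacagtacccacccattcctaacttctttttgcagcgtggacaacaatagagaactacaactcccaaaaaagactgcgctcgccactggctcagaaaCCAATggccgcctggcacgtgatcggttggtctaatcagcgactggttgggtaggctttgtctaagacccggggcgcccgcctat
Tuba1c, chr15:98860072-98860321, plus strand: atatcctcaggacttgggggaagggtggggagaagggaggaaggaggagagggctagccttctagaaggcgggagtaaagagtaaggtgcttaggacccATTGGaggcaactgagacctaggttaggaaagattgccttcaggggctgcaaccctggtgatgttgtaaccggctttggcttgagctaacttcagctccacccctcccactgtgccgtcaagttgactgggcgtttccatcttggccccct
Tubb2a, chr13:34169878-34170127, minus strand: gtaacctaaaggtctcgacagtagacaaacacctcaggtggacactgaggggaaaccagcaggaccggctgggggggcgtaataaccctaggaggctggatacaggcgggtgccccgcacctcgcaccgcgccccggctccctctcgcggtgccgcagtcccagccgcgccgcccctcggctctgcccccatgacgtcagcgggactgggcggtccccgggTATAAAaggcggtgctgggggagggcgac
Tuba4a, chr1:75215870-75216119, minus strand: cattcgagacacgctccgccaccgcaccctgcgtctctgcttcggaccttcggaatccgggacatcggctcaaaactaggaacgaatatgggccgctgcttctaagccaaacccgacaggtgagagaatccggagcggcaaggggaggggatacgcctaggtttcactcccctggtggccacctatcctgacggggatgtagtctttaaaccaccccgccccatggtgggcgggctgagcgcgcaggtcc
Tubb5 and Tuba1c were lower in KO, and Tubb2a and Tuba4a were higher. Tuba1a and Tuba1b, matched but not printed, were also lower in KO. In the 250 bases before the RefSeq start, CCAAT stood at 198 and 90 bases in Tubb5, at 151 bases in Tuba1c and at 176 bases in Tuba1a. CCAAT was in the window of 3 of the 6 genes and in 33.9% of all 32851 RefSeq promoters. Tuba1b, which was past 2-fold lower in KO, had no CCAAT in its window, and neither had Tubb2a or Tuba4a. The presence of CCAAT thus did not separate the genes by direction. The letters TATAAA stood 29 bases before the start of Tubb2a, the only one of the 6 with exactly these letters, against 12.4% of all promoters. Variants of the TATA box were not searched. GGGCGG was present in 4 of the 6, Tuba1a, Tuba1b, Tuba4a and Tubb2a, against 32.7% of all promoters. The cell cycle element TTTGAA, known as CHR, was in none of the 6 windows, against 16.0% of all promoters. Of the letters of E2F sites, TTCCCGC was in none of the 6, against 3.82% of all promoters. The variant TTGGCGC was in none of them either, against 1.97%. Both strands were searched for each motif, and a motif of these letters is not evidence that a factor binds. Of the 250 bases searched, 175 lie inside the annotated gene in Tuba1b, 50 in Tuba1a and 5 in Tubb5. For Tuba1b only 75 of the searched bases lie before the annotated gene, so a motif absent from its window may stand further upstream.

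Stmn1 showed the largest difference among the 10 genes. It lies on chromosome 4 from 134024235 to 134029758 on the plus strand, and its longest annotated transcript has 5 exons and 1060 nt. Its level was 57.3 FPKM in the WT library and 2.00 FPKM in the KO library. About 3320 fragments stood behind the WT value and 119 behind the KO value. The WT/KO ratio was 28.7 with a counting interval of 23.9 to 34.8, a log2 KO/WT of -4.84. By level, Stmn1 ranked 1382nd in WT and 9727th in KO among all gene symbols. Among the 11723 genes with a mean of at least 1 FPKM, 62 had a lower log2 KO/WT than Stmn1, with 0.1 FPKM added to each value. Of the 11057 genes with at least 1 FPKM in both libraries, 4 had a lower log2 KO/WT than Stmn1, here with nothing added. This limit leaves out genes nearly at 0 in KO. Under it only genes above 28.7 FPKM in WT could lie below Stmn1, so the counts are not alike. None of the 961 windows of 100 bases in its longest transcript occurred in a transcript of another protein-coding gene, so reads of that length are not shared with these transcripts. A further annotated gene, AL669982.1, overlaps the Stmn1 locus.

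The genes outside the lists used here whose ratio lay nearest to that of Stmn1 were Cyp7a1, Mcm6, Gsta2, Inmt and Gm11223. They were taken from 9682 genes with at least 1 FPKM in both libraries and no row shared with another symbol, over only these 2 libraries. Mcm6, a subunit of the replicative helicase, was at 27.2 FPKM in WT and 1.11 FPKM in KO. Cyp7a1, the rate-limiting enzyme of bile acid synthesis, was at 30.1 and 1.20 FPKM, and Gsta2, a glutathione transferase, at 80.9 and 2.28 FPKM. Inmt, a methyltransferase, was at 176 and 4.83 FPKM and Gm11223 at 31.8 and 1.47 FPKM. The limit of 1 FPKM in both libraries and the leaving out of listed genes set in part which genes could appear here. Tacc3, a listed gene at 0.474 FPKM in KO, had a WT/KO ratio of 28.6 and was left out by both. The genes named have unlike roles, and likeness over 2 libraries is only a likeness of ratio.

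**Figure D1:**
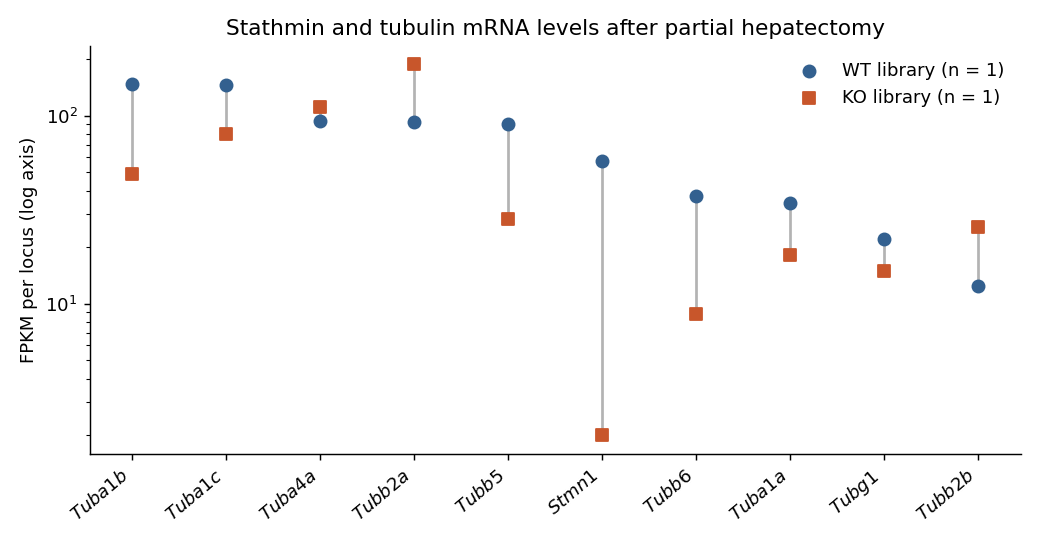
Level of each stathmin and tubulin gene in FPKM on a log axis, with a circle for the WT library, a square for the KO library and a grey line joining them. Stmn1 spans the widest gap, from 57.3 FPKM in WT to 2.00 in KO, and Tubb2a, Tubb2b and Tuba4a are the genes whose square lies above the circle.

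Among the alpha-tubulin genes, 3 of the 4 described were lower in KO and Tuba4a was slightly higher. Tuba1a, Tuba1b and Tuba1c lie close together on chromosome 15, with 15.3 kb between Tuba1b and Tuba1a and 76.3 kb between Tuba1a and Tuba1c. Tuba1b (98761856 to 98764996), the alpha-tubulin widely expressed in dividing cells, was at 147 FPKM in WT and 48.8 FPKM in KO. Its WT/KO ratio was 3.02 (counting interval 2.92 to 3.12). Tuba1c (98860322 to 98868536) was at 146 FPKM in WT, close to Tuba1b, and at 80.1 FPKM in KO, a ratio of 1.82 (1.77 to 1.87). Tuba1a (98780272 to 98783982), best known from developing neurons, was lower in level at 34.3 FPKM in WT and 18.3 FPKM in KO, a ratio of 1.88 (1.77 to 1.99).

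Tuba1b and Tuba1c were thus at like levels in WT but not in KO, where Tuba1b had 0.609 times the FPKM of Tuba1c, against 1.01 times in WT. Their coding sequences are 97.9% identical, and those of Tuba1a and Tuba1b 98.3%. Of the 100-base windows of the longest transcript, 53.7% in Tuba1b, 53.6% in Tuba1c and 43.1% in Tuba1a also occurred in another protein-coding transcript, mostly of each other. How the authors' counting divided such reads between the 3 genes is not given in the sources used here, so the values of the single genes are less certain than their sum. Together the 3 genes had 76.3% of the alpha-tubulin FPKM in WT and 56.2% in KO.

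Tuba4a went the other way. Its level was 93.8 FPKM in WT and 112 FPKM in KO, a KO/WT ratio of 1.19 (counting interval 1.16 to 1.22) and a log2 KO/WT of 0.25. Relative to the median of expressed genes its log2 difference was 0.49, and 90.4% of these genes had a lower log2 KO/WT. The Tuba4a locus in the table (chromosome 1, 75207413 to 75215828) is wider than the annotated gene, which starts at 75211549, and it also holds Stk16. Stk16, a kinase gene with a row of its own, shares 27.3% of the 100-base windows of Tuba4a, so fragments from this place can belong to either gene.

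The beta-tubulin genes differed in both directions. As deposited, Tubb5 and Tubb6 were lower in KO by more than 3-fold, while Tubb2a and Tubb2b were about 2-fold higher. With ratios centred, Tubb5 was no longer past 3-fold, at a log2 KO/WT of -1.44, while Tubb6 still was, at -1.84. Scaling to equal upper quartiles gave the same outcome, with -1.48 for Tubb5 and -1.87 for Tubb6. The centred values of Tubb2a and Tubb2b were 1.25 and 1.28. Tubb5 (chromosome 17, 35970871 to 35975251), a beta-tubulin common in proliferating cells, was at 90.5 FPKM in WT and 28.2 FPKM in KO. The WT/KO ratio was 3.21 (counting interval 3.10 to 3.32). Tubb6 (chromosome 18, 67550371 to 67562402) was at 37.3 FPKM in WT and 8.86 FPKM in KO, a ratio of 4.21 (3.91 to 4.54), the largest among the tubulin genes of the 10. No 100-base window of Tubb5 or Tubb6 occurred in another protein-coding transcript. Tubb5 lies on the same chromosome as Ppard, with 7532 kb between them.

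Tubb2a and Tubb2b are neighbours on the minus strand of chromosome 13, with 49.0 kb between them. Tubb2a (34166170 to 34169877) was at 92.8 FPKM in WT and 187 FPKM in KO, a KO/WT ratio of 2.02 (counting interval 1.97 to 2.07). Tubb2b (34218877 to 34222223), known chiefly from the developing brain, was at 12.4 FPKM in WT and 25.7 FPKM in KO, a ratio of 2.07 (1.93 to 2.21). Both intervals include 2-fold. These genes had the highest ratios of the 10, and 98.3% of expressed genes had a lower log2 KO/WT than Tubb2a. Their coding sequences are 96.5% identical, and 543 windows of 100 bases are the same in both, which is 36.6% of Tubb2a and 29.8% of Tubb2b. In each library Tubb2a had about the same multiple of Tubb2b, 7.47 in WT and 7.30 in KO. How reads common to Tubb2a and Tubb2b were divided is not given either. Their single values and ratios are thus less certain than their sum.

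Tubg1 (chromosome 11, 100981252 to 100987733), the main gamma-tubulin gene, differed least among the genes lower in KO. Its level was 22.0 FPKM in WT and 14.9 FPKM in KO, a WT/KO ratio of 1.48 (counting interval 1.38 to 1.58). Its log2 KO/WT of -0.56 lay 0.33 below the median of expressed genes, and 20.6% of these genes had a lower log2 KO/WT. Per 100 FPKM of alpha-tubulin, Tubg1 had 5.13 FPKM in WT and 5.70 FPKM in KO.

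**Figure D2:**
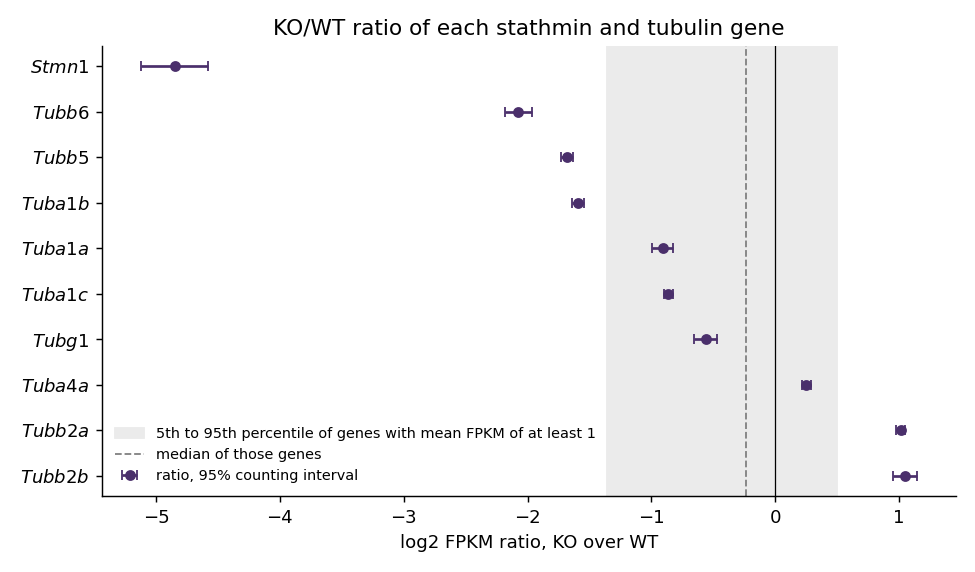
Log2 FPKM ratio of KO over WT for each gene, with bars for the 95% counting interval, a grey band for the range from the 5th to the 95th percentile of genes with a mean of at least 1 FPKM and a dashed line at their median of -0.24. Stmn1 lies far to the left at -4.84, Tubb6, Tubb5 and Tuba1b lie left of the band, and Tubb2a and Tubb2b lie right of it at 1.01 and 1.05.

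In all, 7 of the 10 genes were lower and 3 higher in KO, while 75.6% of the 11723 genes with a mean of at least 1 FPKM were lower and 24.4% higher. Past 2-fold, 4 were lower, Stmn1, Tuba1b, Tubb5 and Tubb6, and 2 were higher, Tubb2a and Tubb2b. Over all genes with at least 1 FPKM in either library, 9.87% were past 2-fold lower in KO and 1.93% past 2-fold higher. Since the genes were listed with this contrast in view, nothing is read from their share against these. Their median log2 KO/WT was -0.88, beside -0.25 over all 15727 genes with a mean of at least 0.1 FPKM. Both medians use a pseudocount of 0.1 FPKM.

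The shares of single genes within a tubulin class do not depend on how the libraries were scaled to each other. Summed over 8 alpha-tubulin genes, the level was 429 FPKM in WT and 262 FPKM in KO, a WT/KO ratio of 1.64. Summed over 7 beta-tubulin genes, it was 456 FPKM in WT and 368 FPKM in KO, a ratio of 1.24. The sums of both classes thus differed less between the libraries than Stmn1, Tuba1b, Tubb5 or Tubb6 did. Beta-tubulin had 1.06 times the FPKM of alpha-tubulin in WT and 1.41 times in KO.

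Within beta-tubulin, Tubb2c was the leading gene in WT with 48.8% of the FPKM, and Tubb2a in KO with 50.9%. Tubb2a and Tubb2b together had 23.1% in WT and 57.9% in KO. Tubb5 had 19.9% in WT and 7.67% in KO, and Tubb6 had 8.18% and 2.41%. Within alpha-tubulin, Tuba1b had 34.3% in WT and 18.6% in KO, and Tuba4a 21.9% and 42.6%. Tuba1c kept a like place, with 34.0% in WT and 30.6% in KO. The 95% counting error, computed on shares of estimated fragments and not of FPKM, was at most 0.577 percentage points. It does not cover how fragments common to several genes were divided, and the spread between mice is unknown.

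**Figure D3:**
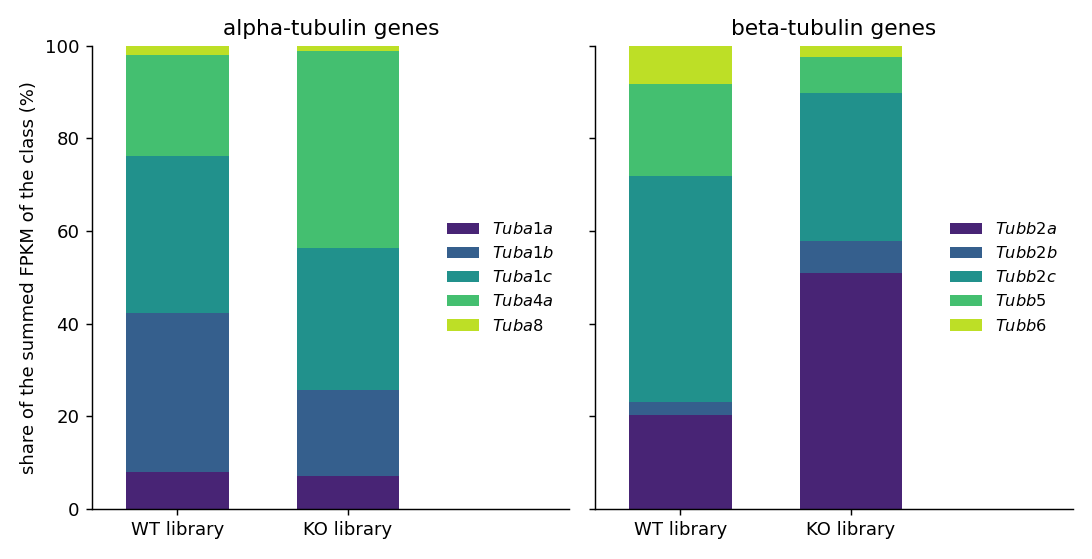
Share of each gene in the summed FPKM of the alpha-tubulin genes (left) and the beta-tubulin genes (right), in percent, with 1 bar per library and genes under 1% in both libraries not drawn. Tuba4a goes from 21.9% in WT to 42.6% in KO, and Tubb2a from 20.3% to 50.9%.

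Set against the mRNA of the alpha-tubulin genes, Stmn1 had 13.3 FPKM per 100 FPKM of alpha-tubulin in WT and 0.763 in KO. This ratio within a library was 17.5 times higher in WT than in KO. It is a ratio of mRNA levels, and the proteins were not measured here.

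Of 11 further tubulin genes, 10 were found in the table, and 4 of these reached 1 FPKM in either library. Tubb2c, the gene now named Tubb4b, had the highest level of all tubulin genes in WT, with 223 FPKM against 118 FPKM in KO, and 1.47% of its 100-base windows also occur in Fam166a. Tuba8 was at 8.05 FPKM in WT and 3.03 FPKM in KO, a WT/KO ratio of 2.66 (counting interval 2.36 to 3.00). The delta- and epsilon-tubulin genes, whose products belong to centrioles, were at 3.40 and 1.62 FPKM (Tubd1) and at 1.07 and 0.110 FPKM (Tube1). Tuba8, Tubd1 and Tube1 were past 2-fold lower and none was past 2-fold higher, but Tubd1 was no longer past 2-fold with equal upper quartiles or after centring, with a log2 KO/WT of -0.87 and -0.83. The 6 of these genes with a mean of at least 0.1 FPKM were lower in KO, as were 74.8% of all genes at that level, with 25.2% higher. Over the 6 the median was -0.97 on the log2 scale. The other stathmins were near or at the floor of 3 fragments. Stmn2 was listed at 0.0738 FPKM in WT and 0.0276 in KO, Stmn3 at 0 and 0.0723, and Stmn4 at 0 in both.

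Genes that serve to nucleate and fold tubulin were mostly within 2-fold, as were most genes. Over all genes with at least 1 FPKM in either library, 9.87% were past 2-fold lower in KO and 1.93% higher. The counts of the other lists can be read beside these shares too. Of 8 genes of the gamma-tubulin ring complex, 1 was past 2-fold lower in KO and none was higher, with a median log2 KO/WT of -0.42. This gene was Tubgcp2, at 6.43 FPKM in WT and 2.82 FPKM in KO, which was no longer past 2-fold once ratios were centred on that of expressed genes. In the same complex Tubgcp4 was at 8.33 and 6.59, Mzt1 at 9.41 and 5.73, and Mzt2 at 7.74 and 7.94. None of 13 genes of the tubulin folding cofactors and prefoldin was past 2-fold in either direction, and their median was -0.13, which turned to 0.11 when ratios were centred on the median of expressed genes. Tbca, which holds beta-tubulin during folding, was at 82.2 FPKM in WT and 60.9 FPKM in KO. The prefoldin genes Pfdn5, whose row names a further gene, and Pfdn2 were at 50.8 and 52.1 FPKM and at 28.8 and 28.0 FPKM. None of the 8 CCT genes, the chaperonin that folds actin and tubulin, was past 2-fold, with a median of -0.30, or -0.067 after centring. Tcp1, whose row names a further gene, was at 90.5 FPKM in WT and 74.9 FPKM in KO, Cct5 at 74.8 and 59.3, and Cct3 at 70.6 and 67.0.

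Proteins that bind microtubules differed widely among themselves. Of 16 such genes with at least 1 FPKM in either library, 6 were past 2-fold lower in KO and none was higher. Those with the lowest ratios are known from the mitotic spindle. Tpx2, which activates Aurora A on the spindle, was at 9.03 FPKM in WT and 0.0759 FPKM in KO. Tacc3 was at 13.6 and 0.474 FPKM, a WT/KO ratio of 28.6 (counting interval 22.9 to 36.6), next to that of Stmn1. Nusap1 was at 7.12 and 0.119 FPKM. Ckap2 was at 9.10 FPKM in WT and rested on about 1 fragment in KO, and the WT/KO ratio of 1328 had a counting interval from 239 to 52691. Mapre2 and Ckap5 were past 2-fold lower by less, with ratios of 2.37 and 2.60, and the row of Ckap5 names a further gene. Mapre3 and Tacc2, which were among the most abundant of this list, were at 13.5 and 12.8 FPKM and at 9.96 and 9.93 FPKM, and Mapre1 was at 12.8 and 7.63 FPKM.

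Of the severing enzymes, Katna1 and Spast were at like levels in both libraries, 8.69 and 9.01 FPKM and 7.19 and 7.28 FPKM. Fignl1 was at 4.80 FPKM in WT and 0.0925 FPKM in KO and was the 1 of 4 such genes with at least 1 FPKM past 2-fold. Of 14 genes that modify tubulin, 1 was past 2-fold lower, Vash1, which removes the last tyrosine of alpha-tubulin, at 1.35 and 0.535 FPKM. The tubulin acetyltransferase Atat1 was at 26.8 FPKM in WT and 22.1 in KO, and its row names a further gene, as does that of Ttll3. The deacetylase Sirt2 was at 21.9 and 20.8 FPKM.

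Stathmin is switched off by phosphorylation. Of 10 genes of kinases and a phosphatase that act on it, 2 were past 2-fold lower in KO, Cdk1 at 41.9 and 0.434 FPKM and Aurkb at 10.5 and 0.118 FPKM. The others were within 2-fold, among them Ppp2ca at 57.4 and 52.4 FPKM and Mapk14 at 31.8 and 31.0 FPKM. The median of this list was -0.20 and turned to 0.040 after the same centring.

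**Figure D4:**
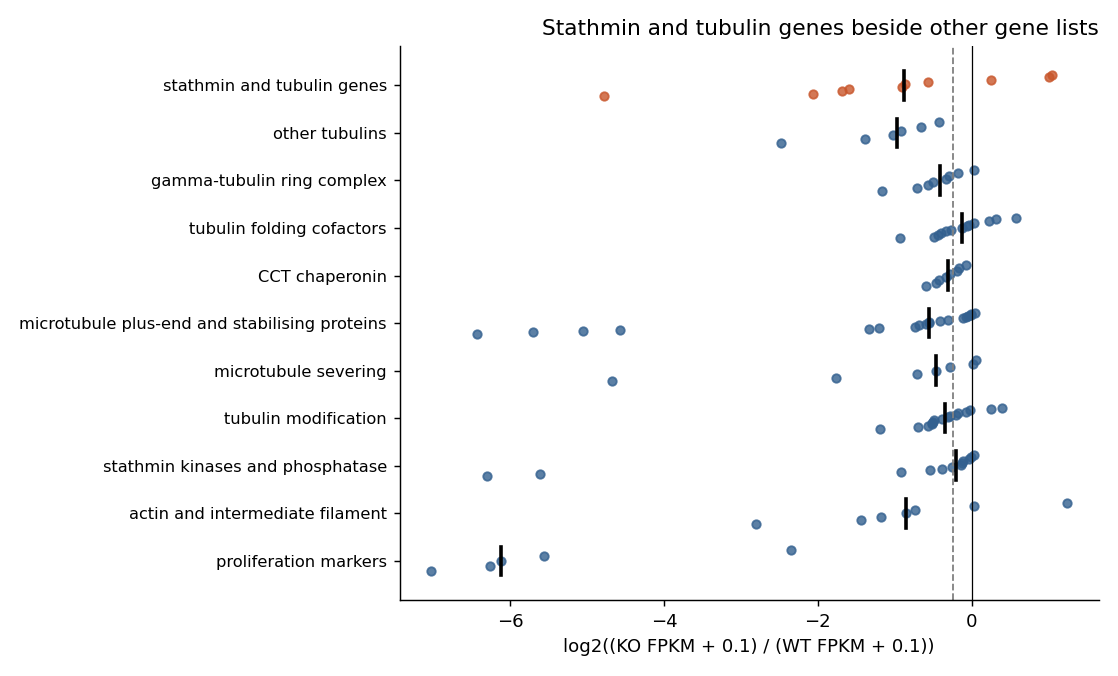
Log2 ratio of KO over WT, with 0.1 FPKM added to each value, for the genes of each list with a mean of at least 0.1 FPKM, where each point is 1 gene, each black bar the median of the list and the dashed line the median of expressed genes. Stathmin and tubulin genes (orange) range from -4.77 to 1.04, while proliferation markers lie between -7.02 and -2.35.

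Other parts of the cytoskeleton also differed between the libraries and in both directions. Actb was at 307 FPKM in WT and 313 FPKM in KO, while Actg1, the other cytoplasmic actin, was at 97.0 and 229 FPKM, a KO/WT ratio of 2.36 (counting interval 2.31 to 2.41). The keratin genes of hepatocytes were lower in KO, with Krt8 at 282 and 124 FPKM and Krt18 at 254 and 141 FPKM, and Krt8 was no longer past 2-fold after centring. Lmnb1, a nuclear lamin, was at 6.71 and 0.874 FPKM, and Vim at 17.8 and 6.52 FPKM.

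Markers of proliferation were lower in KO in all 5 cases, with WT/KO ratios from 5.13 for Pcna to 360 for Ccnb1. Mki67 was at 10.9 and 0.0445 FPKM, and Top2a, whose row names a further gene, at 18.7 and 0.170 FPKM. The summed level of the 5 genes was 132 FPKM in WT and 13.5 FPKM in KO. Stmn1 lay between Pcna and Ccna2 (67.2) in this order, and each tubulin gene among the 10 lay below Pcna. Whether the number of cells in cycle sets any of the stathmin and tubulin values was not tested. In bulk liver, fewer cells of a type and less RNA per cell cannot be told apart.

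Summed marker levels of other cell types were lower in KO as deposited, but the cholangiocyte and erythroid sums turned to slightly higher in KO once values were centred. These sums in WT and KO were 52.8 and 33.8 FPKM for 6 macrophage genes and 48.5 and 34.6 FPKM for 6 endothelial genes, with 1 gene of each past 2-fold lower, of which the endothelial gene Lyve1 was no longer so after centring. For 7 stellate cell and fibroblast genes they were 45.2 and 17.5 FPKM, with 3 genes past 2-fold lower, among them Acta2 at 5.57 and 1.26 FPKM and Col1a1 at 8.56 and 1.75 FPKM. For 5 cholangiocyte genes they were 29.8 and 25.7 FPKM, with 2 of the 4 genes at 1 FPKM or more past 2-fold lower, and 30.3 FPKM in KO after centring. Most of these sums was Spp1, at 24.5 and 22.7 FPKM. The genes past 2-fold lower were Krt19, at 1.72 and 0.559 FPKM, and Krt7, at 1.12 and 0.360 FPKM. For 5 erythroid genes the sums were 295 and 252 FPKM, and 297 FPKM in KO after centring. Alas2, the erythroid enzyme of heme synthesis, went the other way, with 20.6 FPKM in WT and 37.5 FPKM in KO, and was past 2-fold higher after centring. For 4 platelet genes the sums were 2.40 and 1.49 FPKM. As deposited, no erythroid or platelet gene at 1 FPKM or more was past 2-fold. The 6 lymphocyte genes summed to 0.628 and 0.323 FPKM. No marker was listed at 0. The part of these cells in the levels of Stmn1, Tubb6, Vim and the other genes above was not tested.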

How the data were processed

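Hepatic RNA of 1 WT and 1 KO mouse library was measured by RNA-sequencing. The authors aligned reads to NCBI37 (mm9) with TopHat 2.0.0, assembled transcripts with Cufflinks 1.3.0 and estimated FPKM per locus with Cuffdiff, and the deposited values are these FPKM. The table also holds the authors' fold changes, statistics, p-values and q-values, which were not used. Read counts and total depth were not used here.

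Rows marked HIDATA (21 of 38016) were left out, 2302 rows without a symbol named no gene, the 850 rows with several symbols gave their value to each, and rows of a symbol were summed. Ratios of single genes are of FPKM as deposited. Medians of lists used log2(FPKM + 0.1) and genes with a mean of at least 0.1 FPKM. A gene was counted as past 2-fold if it reached 1 FPKM in either library. Fragments were estimated from the first pile of FPKM × kb among 1236 (WT) and 1180 (KO) single-exon genes and the longest transcript in GENCODE vM1. The genes described and the lists were chosen with earlier results of these data known. Named were the 10 genes and, from each list, the 3 genes with the highest mean FPKM and those past 2-fold, and 5 genes nearest to Stmn1 in ratio; for lists of cell markers, sums and examples are given. The values of 1 gene that this rule names are not reported here. Of the lists, Tubb3, Map1lc3b and Fignl2 were not found in the table. Shared windows of 100 bases, the read length, were searched in GENCODE vM1 protein-coding transcripts and not in pseudogenes. With 1 library per genotype no test across samples was run. The median ratio, calls past 2-fold, counting intervals and fragment estimate were tested on simulated data without reads shared between genes. The shares, shared windows and motif searches were not tested in this way. Scripts ran under Python 3.11.15 with scipy 1.17.1, pandas 2.3.3, matplotlib 3.10.9 and numpy 2.4.6.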

Additional observations from a re-analysis of the deposited data

How the results depend on the processing

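No replicate could be left out, and no paired analysis was possible because each genotype had 1 library. Scaling the libraries to equal upper quartiles raised KO values by 0.20 on the log2 scale, centring on the median of expressed genes by 0.24 and equal sums of FPKM by 0.03. None of the 10 genes changed direction under these, nor when rows naming several symbols were left out or only the highest row of a symbol was used. With equal upper quartiles and after centring, the log2 KO/WT of each gene but Stmn1 lay outside its counting interval. Tuba1b, for example, went from -1.59 to -1.39 and -1.36. The values of Stmn1 were -4.64 and -4.61, inside its interval from the longest transcript. They lay outside the interval of -5.05 to -4.65 that fragments estimated from the union of its exons gave. The counts of 4 lower and 2 higher past 2-fold stayed within 1.5 times except as follows. Past 3-fold, 0 genes were higher in KO. At 3-fold in place of 2-fold, genes lower in KO went from 3 to 1 among the other tubulins, from 1 to 0 each in the ring complex and among tubulin modifiers, and from 3 to 1 among actin and intermediate filament genes, where the gene higher in KO went from 1 to 0. At 1.5-fold they went to 2, 3 and 5 in the last 3 of these lists, and from 0 to 1 among folding cofactors, which also had 1 higher, and CCT genes. The count of the ring complex was 0 with equal upper quartiles and after centring. The median of the folding cofactors turned to 0.075 with equal upper quartiles and 0.11 after centring, and that of the stathmin kinases and phosphatase to 0.0072 and 0.040. Under the same scalings the median of the CCT genes was -0.10 and -0.067. With the 10 genes alone as the class, and Tubb2c and Tuba8 left out, the share of Tubb2a and Tubb2b in beta-tubulin was 45.1% in WT and 85.2% in KO, that of Tubb5 38.9% in WT and 11.3% in KO, and in WT those of Tuba4a and Tuba1b in alpha-tubulin were 22.3% and 35.0%. The KO value of Stmn1 rested on about 119 fragments, estimated from its longest transcript, and with no replicate the spread between mice is unknown.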
